A study of Jatropha curcas with 4 samples.

Results

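Jatropha (Jatropha curcas) is an oil-seed shrub that is sensitive to waterlogging. The genes described here are those whose transcripts were abundant in its roots both with and without waterlogging. For every gene, the mean level of the 2 non-stress (NS) libraries and the mean level of the 2 waterlogging (WS) libraries were ranked, and a gene was a member when it stood among the 300 highest in both rankings. This gave 150 members of 17410 genes with a deposited level, among 57437 gene models counted. The members made up 50% of the 300 highest genes of each treatment. Another 149 genes were among the 300 highest in NS only, and 148 in WS only. The members were thus chosen by the measured levels of these same 4 libraries, so their levels and the differences between treatments are given as a description.

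RNA-seq was done on poly(A) RNA of whole roots from plants of about 30 days, at the stage of 6 leaves, grown in pots outdoors. WS plants stood for 24 h with water 3 cm above the soil, and NS plants stood for the same 24 h in a container without water. The study gives the cultivar as Chai Nat, a local variety of Thailand. The plants carried no transgene or mutation that the labels name. Each treatment had 2 independent biological replicates, and the sources used here do not give the number of plants per library. Levels are in CPM, the reads of a gene relative to the library size after TMM scaling (a factor that evens out the bulk of the genes between libraries), unless the level per kilobase of coding length is named. In whole roots, fewer cells of a type and less RNA per cell cannot be told apart.

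In plant tissues a small number of genes supplies a large share of the messenger RNA pool, and genes for ribosomes, the cytoskeleton and basic metabolism are common among them. Waterlogging limits oxygen in the root, and plants under low oxygen shift from respiration towards fermentation and cut back energy-costly synthesis. Of the 150 members, 4 were described by the tables used here, and the other 146 are called by their gene model ID. The 4 were an actin, a ribosomal protein S7, a match to a BAG family protein and a FRIGIDA-like protein. The study designed a primer pair for 1 member, the actin Jcr4S01082.10, which is shown because it is the only sequence of a member in the sources used here. The study checked the specificity of its amplifications by melt curves. Whether the pair also matches other actin genes was not tested here. The pair is given 5′ to 3′ in lower case, with no letter set apart. The forward primer has 22 bases and the reverse primer 25, with a GC content of 50% and 48%.
Actin-F: atggctgatgctgaggatatcc
Actin-R: aatccagcacgataccagttgtacg

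The libraries held 1204502 to 6110438 summed counts, and the fewest reads of any member in any library was 342, so the counting error of a member was at most 5.41%. The second NS library was the smallest, with 1204502 counts. Photosynthesis genes were used to check whole roots for shoot tissue. The list held 7 of these genes, a part of all photosynthesis genes, each of which had reached 1 CPM in 2 or more libraries to be tested. Their detection was thus given, and some of them were at 0 CPM in a library. Their summed level was 76.9 and 65.0 CPM in NS and 68.6 and 37.5 CPM in WS, and none was a member.

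The members, chosen for high levels in both treatments, held a similar share of the transcript pool in each. They held 18.5% and 18.1% of all counts in the 2 NS libraries, and 17.2% and 20.4% in the 2 WS libraries. The mean share was 18.3% ± 0.344 in NS and 18.8% ± 2.28 in WS (SD, n = 2 each), and the treatments overlapped. The members' share also rests on the rule, so nothing is read from its likeness between treatments. The genes high in 1 treatment only did not keep their share, which follows from how they were chosen. Those high in NS only held 11.6% ± 0.261 of the counts in NS and 3.49% ± 0.894 in WS, and those high in WS only held 2.77% ± 0.167 in NS and 15.1% ± 1.64 in WS (SD, n = 2 each). An exact permutation test of 2 against 2 libraries cannot go below a two-sided p of 0.333, so no share was tested.

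The median member was at 732 CPM in NS (range 401 to 6405) and at 940 CPM in WS (range 517 to 13137), where the median gene tested was at 16.8 and 15.9 CPM. Above 1000 CPM were 46 members in NS and 66 in WS, and 27 in both. Membership was less even within single libraries, since 92 members were also among the 300 highest of every library on its own, 49 of 3 libraries and 9 of 2. The lowest ranks that were admitted had a mean of 401 CPM in NS and 517 CPM in WS.

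**Figure D1:**
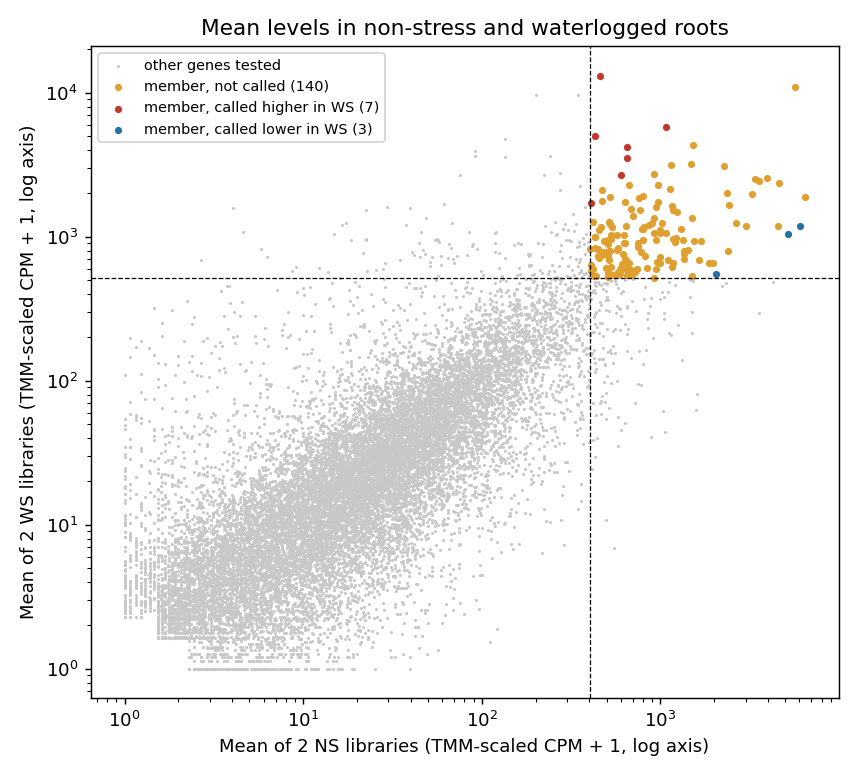
Mean level of each gene in the 2 NS libraries (x axis) and the 2 WS libraries (y axis), in TMM-scaled CPM plus 1 on log axes; each point is 1 gene and the dashed lines mark the 300th mean of each treatment. The 150 members fill the upper right corner, above 401 CPM in NS and 517 CPM in WS, with 7 called higher in WS, 3 called lower and 140 not called.

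At the edge of the selection, Jcr4S01164.20 was the last member by its NS mean, with 460 and 343 CPM in NS and 559 and 1080 CPM in WS. Jcr4S00775.10 was the last by its WS mean, with 858 and 987 CPM in NS and 531 and 504 CPM in WS. Just outside stood Jcr4S02143.40, with 509 and 284 CPM in NS and 523 and 547 CPM in WS. The other gene just outside was Jcr4S00685.50, with 1500 and 1543 CPM in NS and 527 and 503 CPM in WS. The values on either side of the limit lay closer together than the replicates of Jcr4S01164.20 or Jcr4S02143.40, so the limit cuts a continuous range.

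Only 1 member was among the 10 highest of both treatments. This was Jcr4S03730.40, a model of 5 coding exons and 507 bp of coding length without a description, at 12989 to 14534 of scaffold Jcr4S03730 on the plus strand (coordinates here and below are of genome release 4.5). Its level was 5528 and 5773 CPM in NS and 10133 and 11655 CPM in WS. Both WS libraries were above both NS libraries. The fitted log2 fold change was 0.95 (SE 0.43), which edgeR's quasi-likelihood test did not call (adjusted p = 0.259).

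Of the 4 members with the next highest mean over the libraries, 3 differed over 3-fold between the treatment means, and the remaining one had a WS library far below the other libraries. The highest of these, Jcr4S00616.50, is described with the called genes, as is Jcr4S10435.10. Jcr4S03304.40 had the highest NS mean of all genes tested, with 6576 and 6233 CPM in NS and 2087 and 1677 CPM in WS. It has 2 coding exons and 1458 bp of coding length, at 11001 to 12850 of scaffold Jcr4S03304 on the minus strand. Both WS libraries were below both NS libraries, and the log2 fold change of -1.77 (SE 0.43) was just outside the threshold (edgeR adjusted p = 0.0555), with a call in 7 of the 10 alternatives. Jcr4S04160.30 had 4218 and 5016 CPM in NS and 944 and 3799 CPM in WS. Its 2 WS libraries differed 4.02-fold, and the log2 fold change of -0.96 (SE 0.62) was not called (edgeR adjusted p = 0.442), while without WS replicate 2 it was -2.33 (edgeR adjusted p = 1.8e-05). That fit has 1 WS library, which is assumed to vary like the 2 NS libraries, since these alone give the spread.

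**Figure D2:**
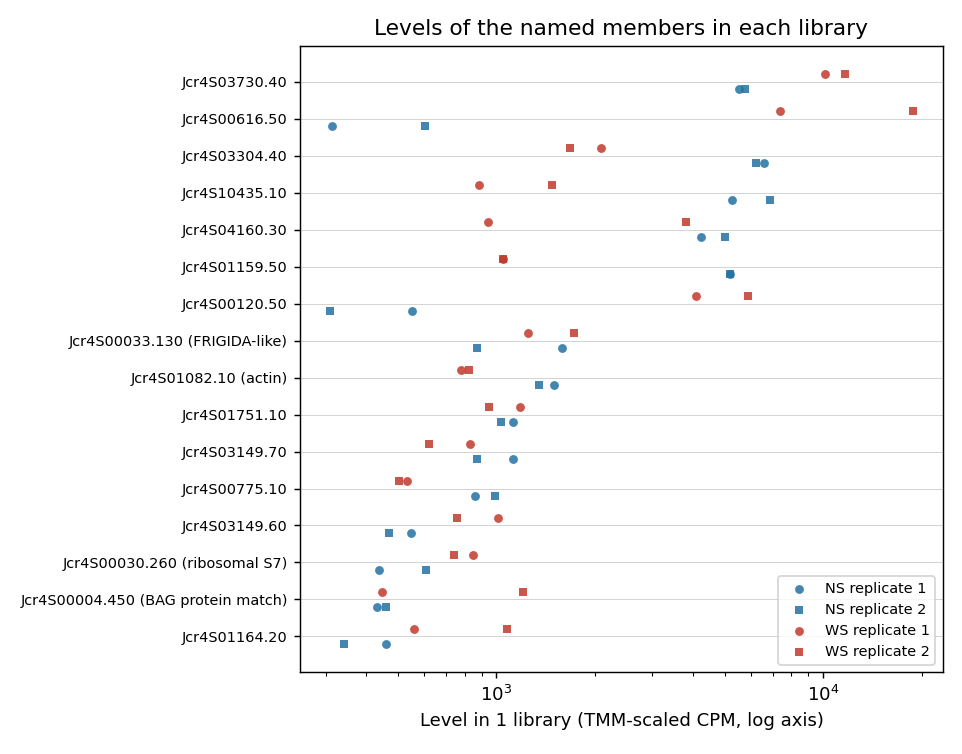
Level of each named member in each of the 4 libraries, in TMM-scaled CPM on a log axis, with NS in blue, WS in red, circles for replicate 1 and squares for replicate 2. Jcr4S00616.50 lies at 315 and 606 CPM in NS but at 7397 and 18878 CPM in WS, while actin lies between 780 and 1501 CPM in all 4 libraries.

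The described members were of different kinds. Actin, the protein of the microfilaments of the cytoskeleton, was represented by Jcr4S01082.10, with 4 coding exons and 1134 bp of coding length at 4770 to 6160 of scaffold Jcr4S01082 on the plus strand. Its level was 1501 and 1354 CPM in NS and 780 and 825 CPM in WS. Both WS libraries were below both NS libraries, and the fitted ratio of WS to NS was 0.562. The log2 fold change of -0.83 (SE 0.41) was not called by edgeR (adjusted p = 0.299), and it lay between -1.06 and -0.76 over the 10 alternatives, in none of which it was called. Plants have several actin genes of near-identical sequence, and the sources used here do not state how reads matching several places were counted. This level is therefore uncertain. The study counted actin among the genes that were not differentially expressed. In its real-time PCR on the same samples, relative to a ubiquitin gene, waterlogging did not induce actin.

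Ribosomal protein S7, a part of the small subunit of the cytosolic ribosome, was represented by Jcr4S00030.260, with 5 coding exons and 564 bp of coding length at 119406 to 120573 of scaffold Jcr4S00030 on the minus strand. Its level was 438 and 610 CPM in NS and 849 and 742 CPM in WS, so both WS libraries were above both NS libraries. The log2 fold change was 0.60 (SE 0.42) and was not called by edgeR (adjusted p = 0.488). Ribosomal proteins too are often encoded by several similar genes.

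Jcr4S00004.450 was annotated by its match to an Arabidopsis BAG protein, a family of co-chaperones that bind Hsp70, and was filed under calcium signalling. It has 3 coding exons and 1185 bp of coding length, at 225700 to 229148 of scaffold Jcr4S00004 on the minus strand. Its level was 432 and 458 CPM in NS and 446 and 1203 CPM in WS. Only WS replicate 2 stood above the others, and WS replicate 1 lay between the NS libraries. The log2 fold change was 0.89 (SE 0.52; edgeR adjusted p = 0.396). It was 1.47 without WS replicate 1 (edgeR adjusted p = 0.0117, with the spread from the NS libraries alone) and -0.03 without WS replicate 2.

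Jcr4S00033.130 was annotated as a FRIGIDA-like protein, a family named after a flowering-time regulator of Arabidopsis, and was filed under hydroxyproline-rich cell wall proteins. It has 4 coding exons and 1659 bp of coding length, at 39819 to 43141 of scaffold Jcr4S00033 on the minus strand. Its level was 1591 and 869 CPM in NS and 1248 and 1728 CPM in WS. The treatments overlapped, and the log2 fold change was 0.27 (SE 0.46; edgeR adjusted p = 0.810).

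Most members did not pass the test of the difference between treatments. With edgeR's quasi-likelihood test, 7 members were called higher in WS and 3 lower at an adjusted p under 0.05, and 140 were not called. Over all genes tested, 2.45% were called higher and 1.91% lower, or 4.37% in either direction. The rule used the levels of both treatments in these same libraries, so nothing is read from the members' count. Without TMM scaling, on the total library size, the members called were 5 higher and 4 lower. The counts rested on single libraries, with 25 higher and 11 lower without WS replicate 1, 24 higher and 18 lower without WS replicate 2, and none without NS replicate 1 or without NS replicate 2. Over all genes tested, the counts were 674 higher and 555 lower without WS replicate 1, 1045 and 1248 without WS replicate 2, and none in the other fits. In each of these fits the treatment with 2 libraries alone gives the spread, and the lone library is assumed to vary like it. The median log2 fold change was 0.28 over the members (range -2.36 to 4.84) and 0.01 over all genes tested, with 91 members above 0 and 59 below. On the total library size the median was 0.05 over the members and -0.22 over all genes, as a change of scaling shifts all genes alike. The standard error of a member ranged from 0.40 to 0.72, and the smallest difference called among them was 3.74-fold.

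The libraries of the treatments did not overlap for 57 members with WS above NS and 32 with WS below NS, where these shares over all genes tested were 25.7% and 26.8%. With raw CPM, which has no TMM scaling, the members were 44 and 49, so the larger side turned. The shares over all genes on raw CPM are not given here, so nothing is read from this turn. The fitted difference was under 2-fold for 109 members, or 72.7%, beside 56.5% of all genes tested. All 4 libraries lay within 2-fold of each other for 59 members, or 39.3%, beside 18.0% of all genes. A gene had to be high in both means to be a member, so nothing is read from these shares.

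**Figure D3:**
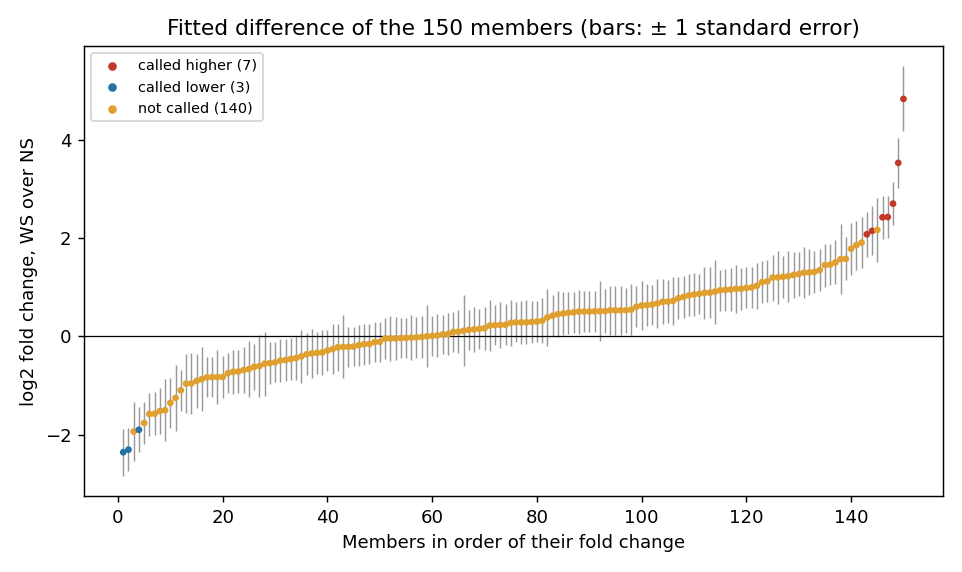
Fitted log2 fold change of WS over NS for each of the 150 members in rising order, with bars of 1 standard error. The values run from -2.36 to 4.84, and the 7 members called higher (red) and 3 called lower (blue) lie at both ends.

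The member with the highest fold change was Jcr4S00616.50. It had 315 and 606 CPM in NS and 7397 and 18878 CPM in WS, and went from rank 249 in NS to rank 1 in WS. It rose 28.6-fold by the fit (log2 fold change 4.84, SE 0.66; edgeR adjusted p = 0.00599). The model is noted as short in the annotation, with 2 coding exons and 252 bp of coding length, at 21588 to 21969 of scaffold Jcr4S00616 on the plus strand. Per kilobase of coding length its mean was 1826 CPM in NS and 52133 CPM in WS, and the latter was the highest of all genes tested. The next was Jcr4S00120.50, also noted as short, with 2 coding exons and 234 bp, at 18656 to 18995 of scaffold Jcr4S00120 on the minus strand. It had 551 and 309 CPM in NS and 4090 and 5871 CPM in WS, from rank 270 to rank 6. Its log2 fold change was 3.53 (SE 0.52; edgeR adjusted p = 0.0073).

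The other 5 members called higher had log2 fold changes from 2.08 upward and 1 to 27 coding exons, and 1 of them, Jcr4S14120.10, was noted as partial. Jcr4S14120.10 is named here after its values were seen, and had 948 and 1186 CPM in NS and 5288 and 6170 CPM in WS. In all 7 members called higher, the lower WS library was above the higher NS library.

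The 3 members called lower were among the 21 highest genes in NS. Jcr4S10435.10 had 5264 and 6891 CPM in NS and 883 and 1482 CPM in WS. It fell by 2.36 on the log2 scale (SE 0.48; edgeR adjusted p = 0.0272), and is noted as partial, with 3 coding exons and 841 bp at 30 to 1241 of scaffold Jcr4S10435 on the minus strand. Jcr4S01159.50 had 5176 and 5190 CPM in NS and 1045 and 1047 CPM in WS, with replicates that were all but equal in both treatments. It fell by 2.31 (SE 0.43; edgeR adjusted p = 0.0197), and has 8 coding exons and 1173 bp at 37903 to 40450 of scaffold Jcr4S01159 on the minus strand. Jcr4S01534.80, a single-exon model, fell by 1.90 with an edgeR adjusted p of 0.0497, and was no longer called under RLE scaling, where 9 of the 10 calls were kept. Without NS replicate 1 or NS replicate 2, the edgeR adjusted p of the 10 members ranged from 0.0815 to 0.352 and no gene of all tested was called. With all libraries, 40 of the 150 members and 3459 of the 17410 genes tested had an unadjusted p under 0.05 in edgeR's quasi-likelihood test. All 10 calls were kept in the likelihood ratio test and in DESeq2.

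Some members were almost level across the 4 libraries. The smallest ratio of the highest to the lowest library was 1.03, in Jcr4S05775.30, with 774 and 774 CPM in NS and 767 and 790 CPM in WS. The next was Jcr4S00086.110, with a ratio of 1.07, from 529 and 525 CPM in NS and 559 and 524 CPM in WS. Both are named here after their values were seen. Jcr4S05775.30 is a single-exon model of 1269 bp that the annotation notes as a transposable element (TE).

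The WS replicates of the members differed more than their NS replicates. The median difference between replicates was 1.21-fold in NS and 1.51-fold in WS over the members, and 1.58-fold and 1.56-fold over all genes tested. The difference was larger in WS than in NS for 100 of the 150 members, or 66.7%, beside 49.1% of all genes. Most genes tested had far lower levels, and genes of like level were not compared in this way. The replicates lay more than 2-fold apart for 5 members in NS and for 38 in WS, and among these 38 replicate 1 was the higher in 14 and replicate 2 in 24. The larger NS library had 6110438 and the smaller 1204502 counts, against 4143491 and 2531520 in WS, and the part of depth in these differences was not tested. Across the 150 members, which are not independent replicates, Pearson's r of log2 CPM was 0.860 between the NS libraries, 0.569 between the WS libraries and 0.310 between both means. These points share their libraries and were cut at a lower limit.

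**Figure D4:**
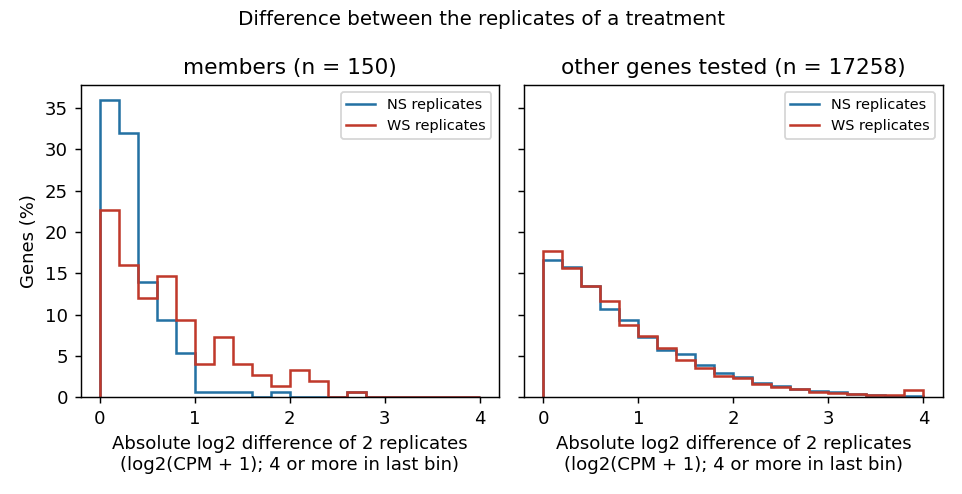
Distribution of the absolute log2 difference between the 2 replicates of a treatment, as a percentage of genes, for the 150 members (left) and the other genes tested (right). Among the members the NS curve falls to near 0 past 1 (2-fold), where 5 members remain, while 38 members lie past it in WS.

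The widest pairs were found in both treatments, and their 4 genes are named here after their values were seen. In NS, Jcr4S12569.10 had 1575 and 259 CPM and Jcr4S03257.10 had 1032 and 281 CPM. In WS, Jcr4S11847.20 had 1199 and 176 CPM and Jcr4S09720.10 had 312 and 1540 CPM. The largest of these gaps was 6.83-fold, in Jcr4S11847.20.

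The gene models of the members were much like those of other genes in size. The median coding length was 1096.5 bp (range 161 to 14424) beside 1047 bp over all genes tested, and the median number of coding exons was 4.5 beside 4. The median coding length was 1437 bp in the genes high in NS only and 1185 bp in those high in WS only. Models with a single coding exon were 20 of 150 members, or 13.3%, beside 16.2% of all genes. Models with 15 or more coding exons were 20 members, or 13.3%, beside 7.48% of all genes, 10.7% of those high in NS only and 12.8% of those high in WS only. Reads per gene grow with its length, so these shares are set beside the levels per kilobase.

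**Figure D5:**
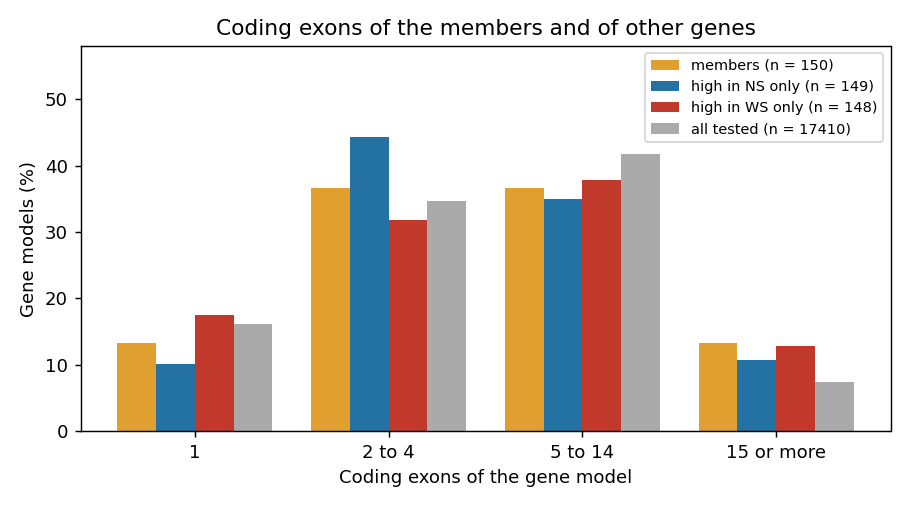
Percentage of gene models with 1, 2 to 4, 5 to 14 or 15 or more coding exons among the members, the genes high in NS only, the genes high in WS only and all genes tested. The members and all genes tested differ most in the class of 15 or more exons (13.3% and 7.48%), followed by that of 5 to 14 exons (36.7% and 41.7%).

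Per kilobase of coding length, the median member was at 789 CPM in NS and 879 CPM in WS, where the median gene tested was at 16.7 and 16.3 CPM. When the ranking was made on this scale, 88 of the 150 members were still among the 300 highest of both treatments. Their median coding length was 748.5 bp, against 1659 bp for the 62 that were not. The 20 members with 15 or more exons had a median of 213 CPM per kilobase in NS, and the 55 members with 2 to 4 exons 1070 CPM per kilobase. The highest member by this measure over all libraries was Jcr4S00616.50, and the next Jcr4S03730.40, with 11145 CPM per kilobase in NS and 21487 in WS.

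The members with the most coding exons were Jcr4S00775.10 and Jcr4S01751.10, with 34 each. Jcr4S00775.10 is noted as partial and has 10794 bp of coding length, at 214 to 17309 of scaffold Jcr4S00775 on the plus strand. Its WS libraries were below its NS libraries, and its log2 fold change of -0.83 (SE 0.41) was not called by edgeR (adjusted p = 0.298). Jcr4S01751.10 has 4938 bp of coding length, at 3754 to 14019 of scaffold Jcr4S01751 on the plus strand. It had 1124 and 1034 CPM in NS and 1180 and 947 CPM in WS, so the treatments overlapped and the log2 fold change was -0.02 (SE 0.41).

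Notes in the annotation marked 21 members, or 14%, beside 20.7% of all genes tested. Among the genes high in NS only the share was 6.71%, and among those high in WS only 14.9%, so a share below that of all genes was not particular to the members. The members held 6 short models (4%, beside 7.16% of all genes), 11 partial models (7.33%, beside 12.6%), 6 transposable elements (4%, beside 3.83%) and 2 pseudogenes (1.33%, beside 3.78%), and some models carried several notes. The 6 short members had a median log2 fold change of 0.90, beside 0.26 over the 1246 short models tested. All 6 were above 0 (5 of 6 on the total library size). Of these 6, edgeR called 2, Jcr4S00616.50 and Jcr4S00120.50, where 4.37% of all genes tested were called. The share called among all short models is not given here. The members were chosen by their levels in these libraries, so nothing is read from this count. The 6 TE members had a median of 0.15 (range -0.0011 to 0.99), beside 0.20 over the 667 TE models tested, and none was called by edgeR. On the total library size the sign of these members' median turned, to -0.08.

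The members were spread over 149 scaffolds, 76 on the plus and 74 on the minus strand, and no member overlapped another gene model. Only 1 pair of members lay next to each other. Jcr4S03149.60, with 18 coding exons on the plus strand, had 546 and 469 CPM in NS and 1014 and 757 CPM in WS. Jcr4S03149.70, with 6 coding exons on the minus strand, had 1124 and 870 CPM in NS and 828 and 622 CPM in WS. The models end 2158 bp from each other, with their 3′ ends facing. The log2 fold changes were 0.80 (SE 0.42; edgeR adjusted p = 0.334) and -0.46 (SE 0.42; edgeR adjusted p = 0.617), of opposite sign with neither called.

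Functional lists could be drawn only from the 665 genes with a description that could be read, so each list holds a part of its family. Over all genes tested, edgeR called 4.37% in either direction and the likelihood ratio test 11.5%. DESeq2 called 11.3% of the 15047 genes to which it gave an adjusted p. An unadjusted p under 0.05 was found for 3459, 4001 and 3490 genes in the same order. The lists are small, so nothing is read from a list without a call. Among 8 cytosolic ribosomal protein genes, 1 was a member (the S7 gene) and 1 was high in WS only. None of the 8 was called by edgeR, the likelihood ratio test or DESeq2, and 1, 0 and 1 of them had an unadjusted p under 0.05. Their median log2 fold change was 0.50, with 7 of 8 above 0 (6 of 8 on the total library size, 8 of 8 under RLE scaling). Per kilobase of coding length, the S7 gene had the highest mean of this list in both treatments, at 930 CPM in NS and 1410 CPM in WS, where the list's medians were 245 and 286 CPM.

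Among 9 genes for translation initiation, none was a member, and none was called by edgeR, the likelihood ratio test or DESeq2 (3, 2 and 3 at an unadjusted p under 0.05). Of 11 calcium signalling genes, the BAG match was the only member, and 2 others were called higher by edgeR and by the likelihood ratio test, 1 by DESeq2, and none lower by any of these. Of 10 cell wall genes, the FRIGIDA-like gene was the only member. None of the 10 was called by edgeR (4 at an unadjusted p under 0.05), while the likelihood ratio test called 2 lower and DESeq2 1 lower. Their median log2 fold change was -1.08 with 7 of 10 below 0, while that of the FRIGIDA-like gene was 0.27. Among the AP2/ERF genes reported here, from a large family of plant transcription factors, none was a member. Gene models that the rule left out are not part of this statement. Of 128 listed, 61 were tested and are reported here. Of these, 10 were called higher and 1 lower by edgeR, 16 and 2 by the likelihood ratio test, and 15 and 1 by DESeq2. The same tests called 4.37%, 11.5% and 11.3% of all genes in either direction, and the list was not tested against these shares. Their median NS level was 9.53 CPM.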

How the data were processed

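RNA-seq of whole roots was compared between 2 WS and 2 NS libraries. The authors trimmed the reads (at least 35 nt, quality value 17), mapped them with TMAP to genome release 4.5 and deposited raw counts per gene model. HTSeq and edgeR are the tools in the submitters' processing notes, and their versions were not given in the sources used here. The authors also deposited a normalized signal for 17410 genes, CPM over TMM-scaled library sizes. Beside these, the deposited log2 fold change, mean log2 level, likelihood ratio (a score), p-value and false discovery rate hold the authors' own comparison and were not used, nor was the score that the deposited annotation gives per model. The sources used here do not state whether counting used strand.

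Members were chosen on the deposited CPM. 2 gene models are not reported here. The counts were fitted with edgeR 4.0.16 in R 4.3.3 (quasi-likelihood F test, two-sided, TMM, no covariate) on all genes that reached 1 CPM in 2 or more libraries. p-values were adjusted by Benjamini-Hochberg over the 17410 genes, and a gene was called under 0.05. Standard errors come from the F statistic, which covers the spread between biological replicates. The fit was tested on simulated counts with changes set in 200 genes. Their spread followed the trend with level and had no part particular to a gene. The simulation therefore does not show how the fit behaves with the spread of these data. Replicate differences used log2(CPM + 1). Summaries used Python 3.11.15 with pandas 2.3.3 and numpy 2.4.6, and figures matplotlib 3.10.9. The RefSeq table matched 0 of the 17410 IDs, so names come only from the study's tables. The alternatives were RLE and total library size scaling, no filter, the likelihood ratio test, DESeq2 1.42.0, leaving out each library, a replicate block, other rank limits (200 and 400), ranks in each library, raw CPM, CPM per kilobase and no pseudocount.

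The members, lists and tests were chosen with earlier results of these data known. Named by rule were the described members, the 5 with the highest mean, the 2 highest and 2 lowest called, those at the rank limit, the 2 with the most exons, the 2 highest per kilobase, and neighbouring pairs. Other genes are said to be named after their values were seen.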

Additional observations from a re-analysis of the deposited data

How the results depend on the processing

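The counts of called members depended on the fit, and the number of genes tested was not the same in all fits. It was 24805 with no filter on low counts and 17410 in the other edgeR fits. DESeq2 gave an adjusted p to 15047 genes. Members called higher were 7, and 16 with no filter on low counts, 12 in the likelihood ratio test, 15 in DESeq2 and 0 to 25 with each library left out. Members called lower were 3, and 9, 7, 8 and 0 to 18 in the same order. Over all genes, 427 were called higher, and 966, 916, 857 and 0 to 1045, while 333 were called lower, and 997, 1088, 838 and 0 to 1248. The counts of 0 came without NS replicate 1 or NS replicate 2, where the lowest edgeR adjusted p of any gene was 0.0591 and 0.0666, and 3133 and 2048 genes had an unadjusted p under 0.05; the cause was not tested. Scaling by total library size moved the all-gene median of the log2 fold change to -0.22, with 361 called higher and 435 lower, and kept 8 of the 10 member calls.

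The labels do not say that replicate numbers pair the libraries, and the correlation of same-numbered deviations was 0.087 over all genes and 0.174 over the members. With the replicate number as a block, 13 members were called higher and 10 lower, and 802 and 882 of all genes, with all 10 member calls kept.

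The number of members was 82 with a rank limit of 200, 203 with a limit of 400, 92 when every library had to hold the gene among its 300 highest, and 133 to 153 with each library left out. With raw CPM, 44 members had WS above NS and 49 WS below NS without overlap, beside 57 and 32. The shares over all genes on raw CPM are not given here. Of the single-gene fold changes, 135 of 160 kept their direction and their side of the threshold, 8 were no longer called, 10 became called and 7 reversed, all near 0 and none called. Jcr4S01751.10 turned to 0.0053 under RLE scaling and in DESeq2, and ranged from -0.16 to 0.097 with each library left out (0.039 without NS replicate 1). With each library left out, Jcr4S00033.130 ranged from -0.097 to 0.78 (-0.0027 without WS replicate 2) and Jcr4S00004.450 from -0.030 to 1.47. The counting error of a member was at most 5.41%, and whether depth limited the calls was not tested.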
